A study of Mus musculus with 17 samples.

Results

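Transcripts of 35 genes that drive the cell cycle and mitosis were examined in RNA from the mouse cochlea. The genes were taken by name, as every row of the deposited expression table whose gene symbol was on a list of known cell cycle and mitosis genes. All 35 were present, each in a single row, among 35285 genes in the table. RNA sequencing covered 17 wild-type C57BL/6J mice, obtained at 8 weeks of age, in 3 groups. The control group (3 mice) received saline intraperitoneally and no noise. The noise exposure (NE) group (7 mice) was exposed to noise of 8 to 16 kHz at 100 dB for 2 h, and whether these mice were also injected is not given in the sources used here. The brimonidine group (7 mice) was exposed in the same way and was injected intraperitoneally with 1 mg/kg brimonidine, a drug that activates α2-adrenergic receptors, 3 times: the day before exposure, that day and the next. Cochleae were collected 2 days after exposure, and each library came from 1 mouse. The controls differed from the NE group in noise and possibly in injection. The brimonidine group differed from the NE group in the drug and possibly in injection. No group received brimonidine without noise.

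A dividing cell copies its DNA once and then separates the copies. Licensing factors load the Mcm helicase on replication origins, cyclins activate their kinases to start synthesis and then mitosis, and the spindle, its kinetochores and its checkpoint distribute the chromosomes. Transcription of the replication genes is driven mainly by E2F factors at the start of S phase, and that of the mitotic genes by the MuvB complex with B-Myb and Foxm1 in G2 and M phase. These transcripts are therefore low in resting cells and are used as marks of proliferation. In the adult mammalian cochlea the hair cells and supporting cells of the sensory epithelium no longer divide, whereas blood cell precursors in bone marrow do so throughout life.

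Values are FPKM (fragments scaled by the exon length of the gene and by the depth of the library), so that levels of different genes can be compared per length. Libraries held between 14457733 and 18288854 counted fragments, and a member was covered by 228 fragments (*Ccne1*) to 16395 (*Mki67*) in a library, over the 34 members whose exon length matched the annotation. Control 2 stood apart before any comparison. Pearson correlations were taken on log2(FPKM + 1) over genes at 1 FPKM or more in at least 3 of the 17 libraries. The median correlation of control 2 with the other libraries was 0.831, against 0.947 and 0.955 for the other controls and 0.97 to 0.981 for the exposed libraries. The submitters labelled the tissue as cochlear, with interstitial cells as the cell type. *Coch*, the most abundant protein of the cochlear extracellular matrix, was at 444 to 1040 FPKM in the 3 controls, and 3 of 6 hair cell markers reached 1 FPKM in all 17 libraries. Neutrophil transcripts were also abundant, and *S100a9* was at 3890 FPKM or more in every control. For the comparisons with the control group, counts and medians of the members and of the other cell cycle genes are given with and without control 2.

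The sequences around the start sites differ between the replication genes and the mitotic genes. RefSeq promoters (build GRCm38.p6, 250 bases before to 50 bases after the start) were matched for 29 of the 35 members. *Ccne2*, *Ccna2*, *Mcm4*, *Aurkb*, *Tpx2* and *Foxm1* had no match. The promoters below were chosen from members described in the results, 3 that act in mitosis or mark all cycling cells and 2 that license replication. They read 5′ to 3′ on the strand of the gene, and capitals mark 3 kinds of motif found on either strand: the cell cycle homology region (CHR, letters TTTGAA), bound by MuvB, the CCAAT box, bound by NF-Y, and the E2F site (letters TTTGGCGC, or TTTCGCGC on the other strand of *Mcm6*, with 2 further forms searched).
Cenpf, kinetochore protein, chr1:189688037-189688336, minus strand: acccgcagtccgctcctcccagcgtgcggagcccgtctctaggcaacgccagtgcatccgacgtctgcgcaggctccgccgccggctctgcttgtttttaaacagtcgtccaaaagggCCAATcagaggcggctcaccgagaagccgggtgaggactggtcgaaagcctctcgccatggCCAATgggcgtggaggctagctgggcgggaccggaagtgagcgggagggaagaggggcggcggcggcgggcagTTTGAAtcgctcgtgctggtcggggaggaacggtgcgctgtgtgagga
Kif23, motor of the central spindle, chr9:61946750-61947049, minus strand: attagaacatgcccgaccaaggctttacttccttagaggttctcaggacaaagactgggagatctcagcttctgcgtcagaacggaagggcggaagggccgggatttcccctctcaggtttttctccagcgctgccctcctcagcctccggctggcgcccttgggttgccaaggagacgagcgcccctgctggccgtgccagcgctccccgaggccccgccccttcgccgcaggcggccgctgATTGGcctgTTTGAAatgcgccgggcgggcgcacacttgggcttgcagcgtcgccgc
Mki67, coat protein of mitotic chromosomes, chr7:135716330-135716629, minus strand: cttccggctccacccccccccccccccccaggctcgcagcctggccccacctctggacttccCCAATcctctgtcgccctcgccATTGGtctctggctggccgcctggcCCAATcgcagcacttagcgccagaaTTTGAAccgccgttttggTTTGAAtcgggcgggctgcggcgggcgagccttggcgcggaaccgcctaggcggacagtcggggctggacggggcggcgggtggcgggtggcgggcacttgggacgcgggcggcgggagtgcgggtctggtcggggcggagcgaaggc
Cdt1, licensing factor, chr8:122567765-122568064, plus strand: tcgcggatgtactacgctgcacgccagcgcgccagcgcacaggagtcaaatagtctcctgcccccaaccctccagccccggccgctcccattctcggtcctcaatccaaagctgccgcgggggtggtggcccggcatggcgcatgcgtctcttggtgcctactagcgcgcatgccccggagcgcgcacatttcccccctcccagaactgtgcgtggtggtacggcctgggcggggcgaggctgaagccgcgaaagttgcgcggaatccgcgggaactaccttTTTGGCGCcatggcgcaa
Mcm6, helicase subunit, chr1:128359656-128359955, minus strand: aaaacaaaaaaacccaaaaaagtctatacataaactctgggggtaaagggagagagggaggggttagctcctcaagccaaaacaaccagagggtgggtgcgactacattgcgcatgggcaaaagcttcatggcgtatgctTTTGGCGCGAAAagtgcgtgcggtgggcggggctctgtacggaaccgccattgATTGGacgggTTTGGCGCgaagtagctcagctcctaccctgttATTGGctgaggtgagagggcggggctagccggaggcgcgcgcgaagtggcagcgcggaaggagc

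The first 3 sequences hold CHR letters together with CCAAT letters, and the last 2 hold E2F letters without the CHR. In *Mcm6* the first pair of E2F matches overlap on opposite strands. Members were divided by function into an early class (licensing, DNA synthesis and the E-type cyclins, 13 genes) and a late class (the other 22). CHR letters were present in 13 of 18 late promoters (72.2%) and in 1 of 11 early promoters (9.09%), that of *Mcm2*. Of the 27025 genes with a promoter, 20.2% held the same letters, and 14.5% of the 10965 that were tested in the comparison of NE with control. E2F letters showed the opposite division, with 6 of 11 early promoters (54.5%; *Cdc6*, *Cdt1*, *Mcm3*, *Mcm5*, *Mcm6* and *Mcm7*) and 1 of 18 late promoters (5.56%; *Cdk1*), against 2.6% of all genes and 4.4% of tested genes. CCAAT letters were the most frequent, in 23 of 29 members (79.3%) against 41.1% of all genes, and all 14 members with CHR letters (48.3%) held both, against 7.97% of all genes. The match of letters is a description of these windows and not of binding.

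Every member was detected at 1 FPKM or more in all 17 libraries, and the lowest single value was 2.61 FPKM (*Cenpf*, control 2). Over the 3 group means, *Pcna*, the sliding clamp of DNA polymerase, had the highest level, with 103 ± 11.3 FPKM in the NE group (SD, n = 7). *Rrm2*, the regulated subunit of ribonucleotide reductase, followed with 83.1 ± 7.43, and *Mki67* with 76.6 ± 9.68. At the other end stood *Tyms* (thymidylate synthase, 7.25 ± 0.945) and *Cenpf* (5.55 ± 0.763). Ordered in this way, the NE ranges of 30 of 34 neighboring pairs overlapped, so the order is a graded series. Ranges were separate only between *Pcna* and *Rrm2*, *Mcm4* and *Aurkb*, *Mcm2* and *Bub1*, and *Foxm1* and *Kif23*. The plot of levels by gene shows the same 17 libraries for each member, with the control values spread widely and the exposed libraries close together.

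**Figure D1:**
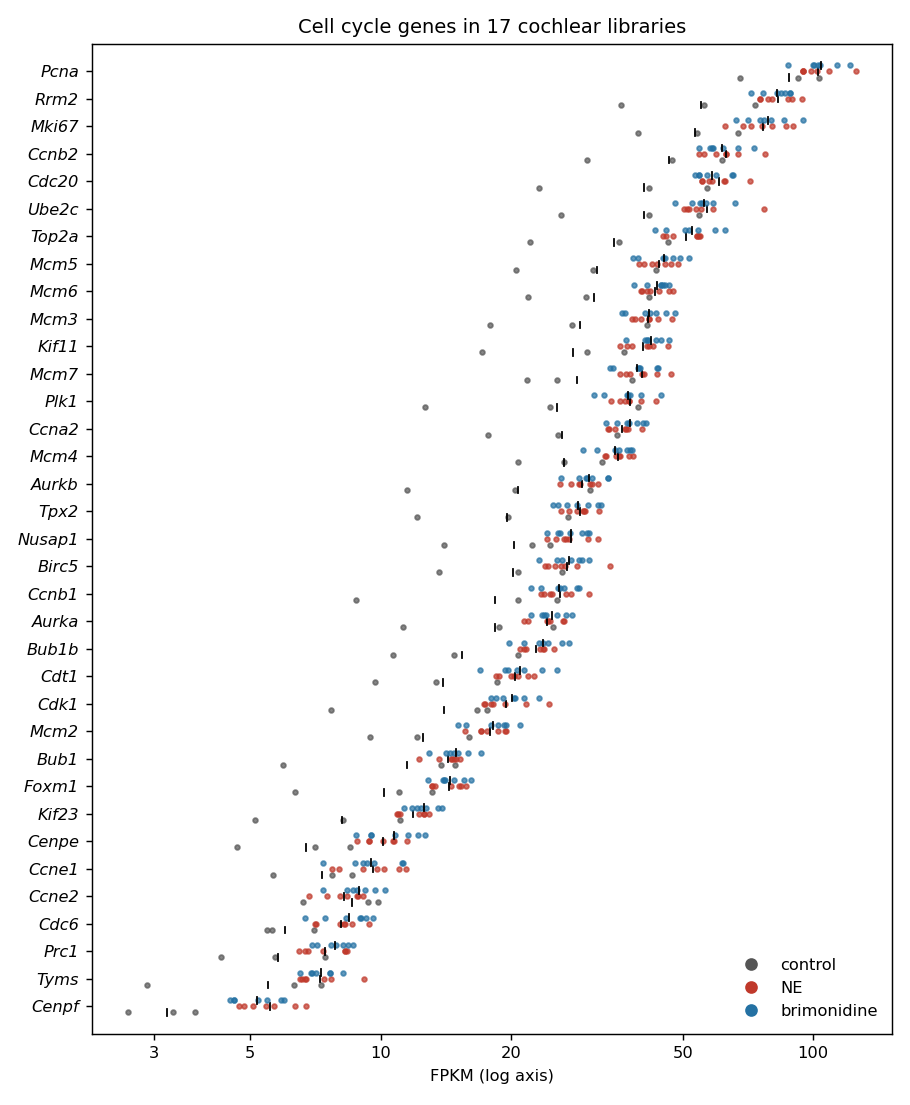
FPKM (log axis) of the 35 cell cycle genes, ordered by level, in each of the 17 libraries; gray points are control (n = 3), red NE (n = 7) and blue brimonidine (n = 7), and black ticks are group means. NE and brimonidine points overlap for every gene, and the lowest gray point of each row is control 2.

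Comparing the NE group with the control group asks how the cochlear transcriptome differed 2 days after noise. Of the 35 members, 34 had a higher mean on the log2(FPKM + 1) scale in the NE group, and 13 of them rose at a Benjamini-Hochberg adjusted p under 0.05 (limma, over all genes tested). Among all 15950 genes tested, 2.12% were higher at that threshold. The changes were small: no member reached a log2 fold change of 1 as well, a pair of thresholds that 5.76% of all genes passed in either direction. The median log2 fold change of the members was 0.52, against -0.04 over all genes tested, and single members lay between -0.05 (*Ccne2*) and 0.68 (*Plk1*). At an unadjusted p under 0.05, 31 members were higher and none was lower, where 10.6% of all genes were higher. In 7 members (*Cdc6*, *Mcm4*, *Rrm2*, *Bub1b*, *Cenpe*, *Cenpf* and *Foxm1*) every NE library lay above every control, a separation found for 3.24% of all genes, and the exact two-sided permutation p was 0.0083 for each, the smallest that 7 against 3 libraries allow. In bulk RNA, a change in the number of dividing cells and a change in the transcripts per cell cannot be told apart.

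Of the 8 licensing genes, 5 passed the adjusted threshold, where 2.12% of all genes were higher. Their median log2 fold change was 0.51, and all 8 were higher at an unadjusted p under 0.05, where 10.6% of all genes were. Both chromosome proteins and 4 of 7 spindle and kinetochore genes passed the adjusted threshold too, and the difference between roles was not tested. *Cdt1*, which brings the Mcm helicase to origins, was at 18.6, 9.73 and 13.5 FPKM in controls 1, 2 and 3. In the NE group its lowest, median and highest values were 18.5, 20.4 and 22.6 FPKM. Control 1 thus lay just inside the NE range and the other controls below it, and the log2 fold change was 0.56 ± 0.15 (SE, limma, adjusted p = 0.0309). *Cdc6*, the ATPase that works with *Cdt1* on the origin, was at 7.01, 5.47 and 5.61 FPKM in the controls and at 7.07 to 9.41 (median 8.23) in the NE group. These groups did not overlap, although control 1 lay just under the lowest NE library, and the change was 0.37 ± 0.10 (adjusted p = 0.0337). *Mcm2*, a subunit of the helicase ring, was at 16.0, 9.43 and 12.1 FPKM in the controls and at 15.7 to 19.5 (median 17.7) in the NE group, a change of 0.51 ± 0.13 (adjusted p = 0.0274). *Mcm4* (0.42) and *Mcm7* (0.52) also rose, and *Mcm3* (0.58), *Mcm5* (0.52) and *Mcm6* (0.50) did not pass the adjusted threshold, with adjusted p from 0.0556 to 0.072.

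Of the 3 DNA synthesis genes, *Rrm2* alone rose, by 0.64 ± 0.18 (adjusted p = 0.0376), a ratio of group means of 1.51. *Pcna*, a usual mark of S phase, was at 103, 67.7 and 92.4 FPKM in controls 1, 2 and 3 and at 94.8 to 126 (median 98.8) in the NE group. Its control 1 lay above the NE median and its change of 0.24 ± 0.14 did not pass (adjusted p = 0.246). The value of *Tyms* was 0.41 ± 0.20 (adjusted p = 0.183).

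No gene among the cyclins and *Cdk1* passed the adjusted threshold. *Ccna2*, the cyclin of S phase and early mitosis, was at 35.3, 17.8 and 25.7 FPKM in the controls and at 33.6 to 40.2 (median 36.7) in the NE group, with a change of 0.50 ± 0.16 (adjusted p = 0.0626). The mitotic cyclins *Ccnb1* (0.59) and *Ccnb2* (0.48), their kinase *Cdk1* (0.52) and the S phase cyclin *Ccne1* (0.36) had unadjusted p under 0.05 and adjusted p from 0.103 to 0.121. *Ccne2*, the other E-type cyclin, was the exception of the whole list. It was at 9.34, 6.63 and 9.86 FPKM in controls 1, 2 and 3 and at 6.85 to 9.12 (median 8.35) in the NE group, so that 2 controls lay above all NE libraries and 1 below them. Its change was -0.05 ± 0.12 (95% confidence interval -0.31 to 0.22), and its sign turned positive under another scaling of the libraries.

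Of the 7 spindle and kinetochore genes, 4 passed the adjusted threshold. *Cenpf*, which corrects attachments at the kinetochore, had the smallest p of the 35: it was at 3.72, 2.61 and 3.32 FPKM in the controls and at 4.71 to 6.72 (median 5.43) in the NE group. No control came near the NE range, and *Cenpf* rose by 0.64 ± 0.12 (adjusted p = 0.0054), a ratio of means of 1.72. *Cenpe*, the kinesin that moves chromosomes to the spindle equator, was at 8.48, 4.67 and 7.07 FPKM in the controls and at 8.82 to 11.5 (median 10.2) in the NE group, a rise of 0.55 ± 0.14 (adjusted p = 0.0271). *Kif23* was at 11.1, 5.12 and 8.17 FPKM in the controls and at 10.9 to 12.9 (median 12.3) in the NE group, with 0.55 ± 0.17 (adjusted p = 0.0492). The remaining spindle gene that rose was *Tpx2*, an activator of Aurora A (0.60, adjusted p = 0.0497), and *Kif11* (0.58), *Nusap1* (0.45) and *Prc1* (0.33) had adjusted p from 0.0601 to 0.12.

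*Bub1b*, the checkpoint kinase-like protein BubR1, was at 20.8, 10.7 and 14.8 FPKM in the controls and at 21.1 to 25.1 (median 23.4) in the NE group. Control 1 lay just under the lowest NE library, and *Bub1b* rose by 0.59 ± 0.15 (adjusted p = 0.0284). It was the only one of 6 mitotic kinase and checkpoint genes to pass. *Plk1*, with the highest fold change of all members on the log2(FPKM + 1) scale (0.68 ± 0.25), had an adjusted p of 0.089, and its controls ranged from 12.7 to 39.3 FPKM around an NE mean of 37.8. By the ratio of group means it was 1.48, below the 1.72 of *Cenpf*. The coactivator of the anaphase-promoting complex, *Cdc20* (0.65), its ubiquitin-conjugating enzyme *Ube2c* (0.52) and the transcription factor *Foxm1* (0.51) had adjusted p from 0.0647 to 0.104.

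Of the standard marks of proliferation, *Mki67* and *Top2a* passed narrowly, and *Pcna*, described above, did not pass. *Mki67*, present in all phases of the cycle but not in resting cells, was at 67.0, 39.4 and 54.0 FPKM in the controls and at 62.7 to 89.8 (median 76.2) in the NE group, with a rise of 0.53 ± 0.16 (adjusted p = 0.0492). *Top2a*, the topoisomerase that untangles sister chromosomes, was at 46.2, 22.2 and 35.5 FPKM in the controls and at 44.9 to 54.8 (median 53.9) in the NE group, with 0.59 ± 0.18 (adjusted p = 0.0497). In both genes control 1 lay inside the NE range and controls 2 and 3 below it.

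**Figure D2:**
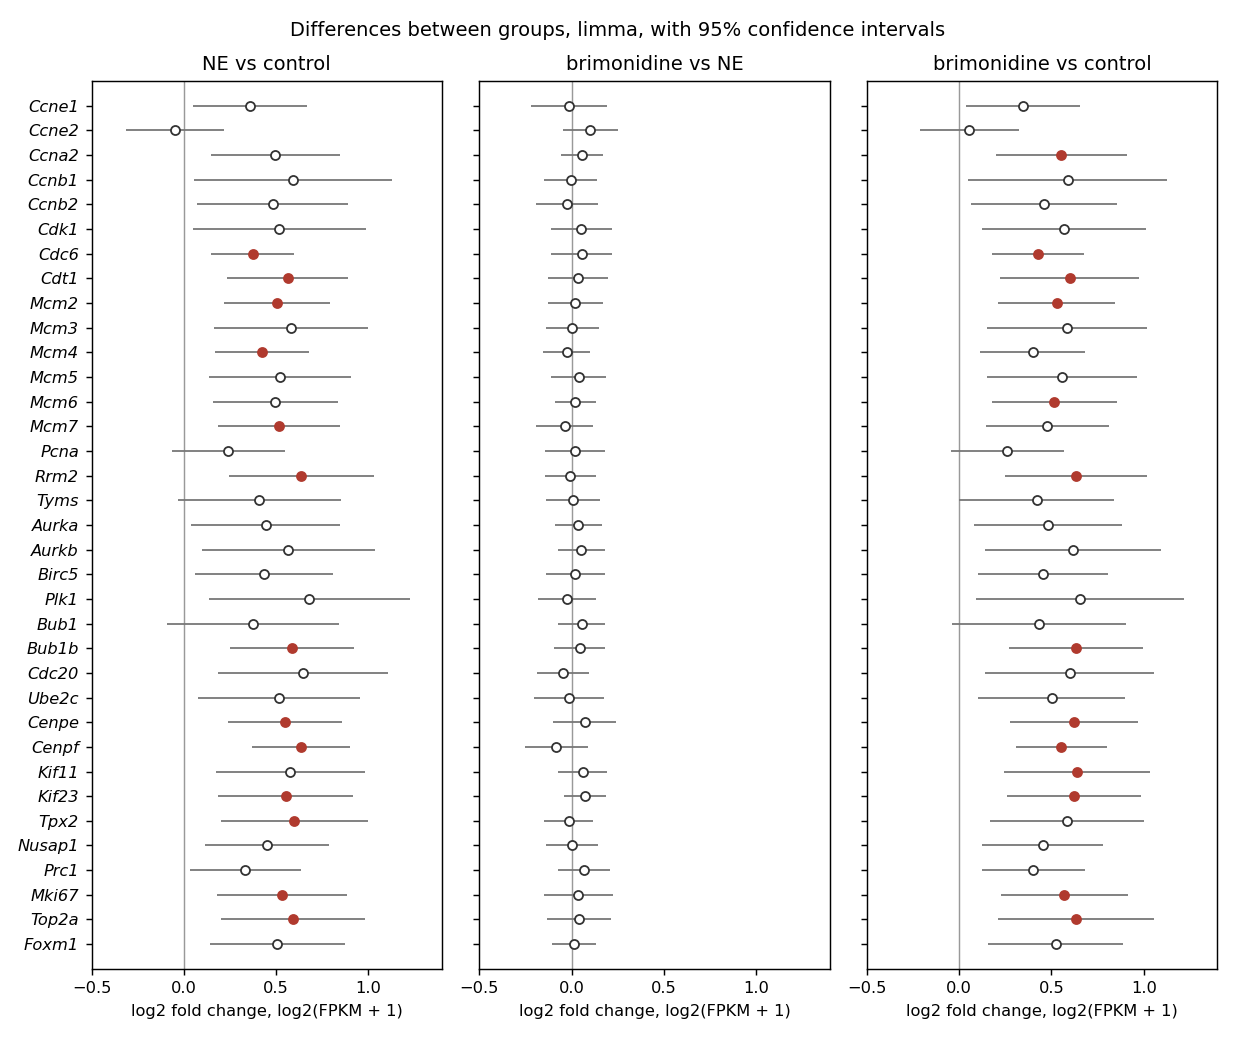
Log2 fold change of each member on the log2(FPKM + 1) scale with its 95% confidence interval (limma) in the 3 comparisons, members grouped by role; filled red circles passed an adjusted p under 0.05. 13 members passed in each comparison with the control group and 0 between brimonidine and NE, where all intervals are narrow and include 0.

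The 3 controls were not alike, and the difference from NE rested on them unequally. Control 2 was the lowest of all 17 libraries for all 35 members, at a median of 0.465 of the NE mean. Control 3 was below every NE library for 33 members, with a median ratio of 0.707, and the exceptions were *Bub1* and *Ccne2*. Control 1 was inside the NE range for 27 members, with a median ratio of 0.94. The control 2 deficit varied by gene, from a ratio of 0.335 (*Plk1*) and 0.338 (*Ccnb1*) to 0.657 (*Pcna*), 0.675 (*Cdc6*) and 0.806 (*Ccne2*). By role, the median ratio in control 2 ran from 0.424 for the anaphase-promoting complex genes and 0.432 for the DNA synthesis genes to 0.519 for the licensing genes.

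Without control 2, the median log2 fold change of the members fell to 0.26, 18 members were higher at an unadjusted p under 0.05 (6.45% of all genes), and 1 rose at the adjusted threshold (0.875% of all genes). That member was *Cenpf*, at 0.53 ± 0.12 (adjusted p = 0.0261; 0.000487 to 0.215 over all alternatives tried). The other 12 calls were lost, and among them the change of *Cdt1* was 0.35 (adjusted p = 0.11) and that of *Top2a* 0.31 (adjusted p = 0.16). The 7 members without overlap stayed the same, which was fixed in advance because control 2 was the lowest library for every member. The share of all genes without overlap was not computed for this setting. Without control 1, 30 members passed, where 7.94% of all genes were higher, and without control 3, 2 passed, where 2.01% were. Leaving out single NE libraries also moved the count of 13, which became 1 without NE 1 or NE 4, 2 without NE 7, 4 without NE 3, 5 without NE 2, 6 without NE 6 and 7 without NE 5. The share of all genes that were higher moved too, to between 0.882% (without NE 4) and 2.47% (without NE 6). The count near the threshold was thus unstable, while the median difference stayed between 0.49 and 0.54 without any single NE library.

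**Figure D3:**
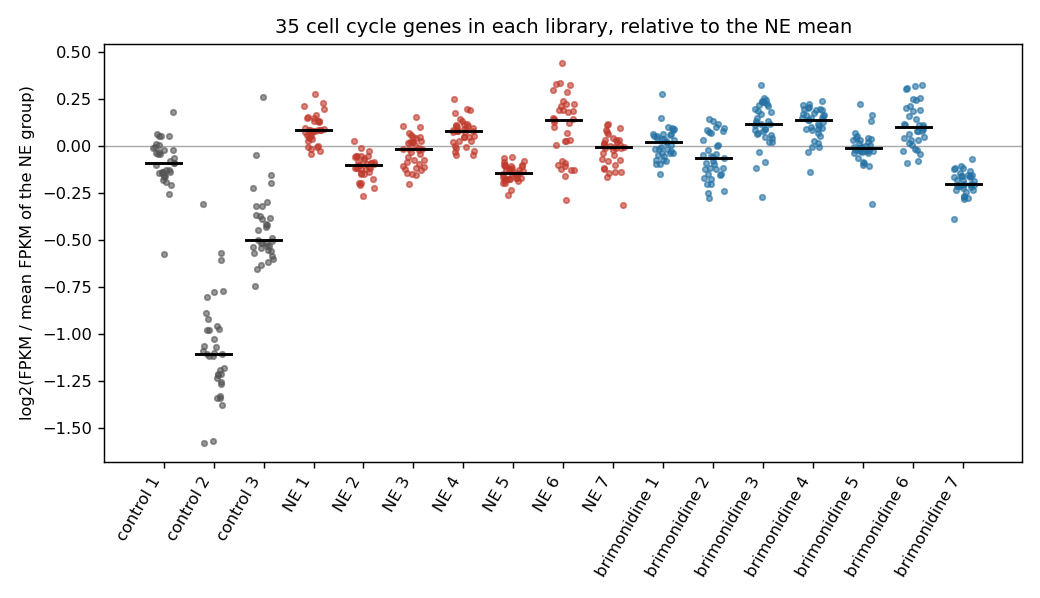
Log2 ratio of FPKM to the NE group mean for the 35 members (points) in each library, with the median of the members as a bar. Control 2 lies lowest (median ratio 0.465), control 3 next (0.707), and control 1 (0.94) and the 14 exposed libraries lie near the NE mean.

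Markers of other cells moved in the same libraries. Summed over the members, FPKM was 1094, 554 and 848 in controls 1, 2 and 3 and 1050 to 1271 in the NE group. The 5 markers of early neutrophil precursors (*Elane*, *Mpo*, *Prtn3*, *Ctsg* and *Ms4a3*, granule and membrane proteins made at the dividing stages), all at 1 FPKM or more in every library, summed to 3158, 628 and 2593 in the controls and 2530 to 4178 in the NE group. Control 2 was lowest here as well, at 0.207 of the NE mean, and the 5 late neutrophil markers were at 0.203 of it in the same library. The sum of the 10 erythroid precursor markers, all at 1 FPKM or more, consisted mostly of the globins *Hbb-bs* and *Hba-a1* and was highest in control 2, with 2651, 9721 and 1616 in the controls and 2002 to 5486 in the NE group. Singly, 8 of the 10 were highest in control 2, and *Slc4a1* and *Rhag* were not. In NE against control the median log2 fold change of the erythroid markers was -0.07 with control 2 and 0.54 without it. In either fit 0 of 10 rose at an adjusted p under 0.05 (limma). The median of the osteoblast markers likewise went from -0.06 to 0.38 without control 2, and that of the early neutrophil markers from 0.805 to 0.086. B-cell precursor markers were low throughout (2 of 7 at 1 FPKM in every library, *Rag2* at 0 in control 3) and summed to 20.8, 42.2 and 12.5 in the controls and 14.5 to 25.4 in the NE group. The 6 plasma cell markers were at 0.219 of the NE mean in control 2.

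Tissue markers differed too. The 8 cerebellar neuron markers, such as *Gabra6* and *Cbln3*, summed to 204, 548 and 215 in the controls, 18.7 to 28.0 in the NE group and 19.3 to 76.1 in the brimonidine group, and all 8 fell in NE against control at an adjusted p under 0.05, where 12.0% of all genes were lower (*Gabra6* was listed at 0 in NE 2 and NE 3). Cochlear epithelium markers (7 of 8 at 1 FPKM in every library) summed to 559, 1385 and 801 in the controls and 605 to 904 in the NE group. Hair cell markers summed to 14.3 to 28.3 in the controls and 12.8 to 17.7 in the NE group, and *Slc26a5*, the motor protein of outer hair cells, was under 1 FPKM in every library. Osteoblast markers were at 1.63 and endothelial markers at 1.1 of the NE mean in control 2, and skeletal muscle markers at 0.311, 0.881 and 0.357 in controls 1, 2 and 3. In NE against control 3 of 6 muscle markers (*Acta1*, 1.17, *Myh1*, 1.10, and *Ckm*, 1.05) and 1 of 6 plasma cell markers (*Irf4*, 1.05) rose at an adjusted p under 0.05 (limma, 2.12% of all genes), and without control 2 these counts were 5 and 0 (0.875% of all genes). The part of these cell types in the difference of the members was not tested.

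**Figure D4:**
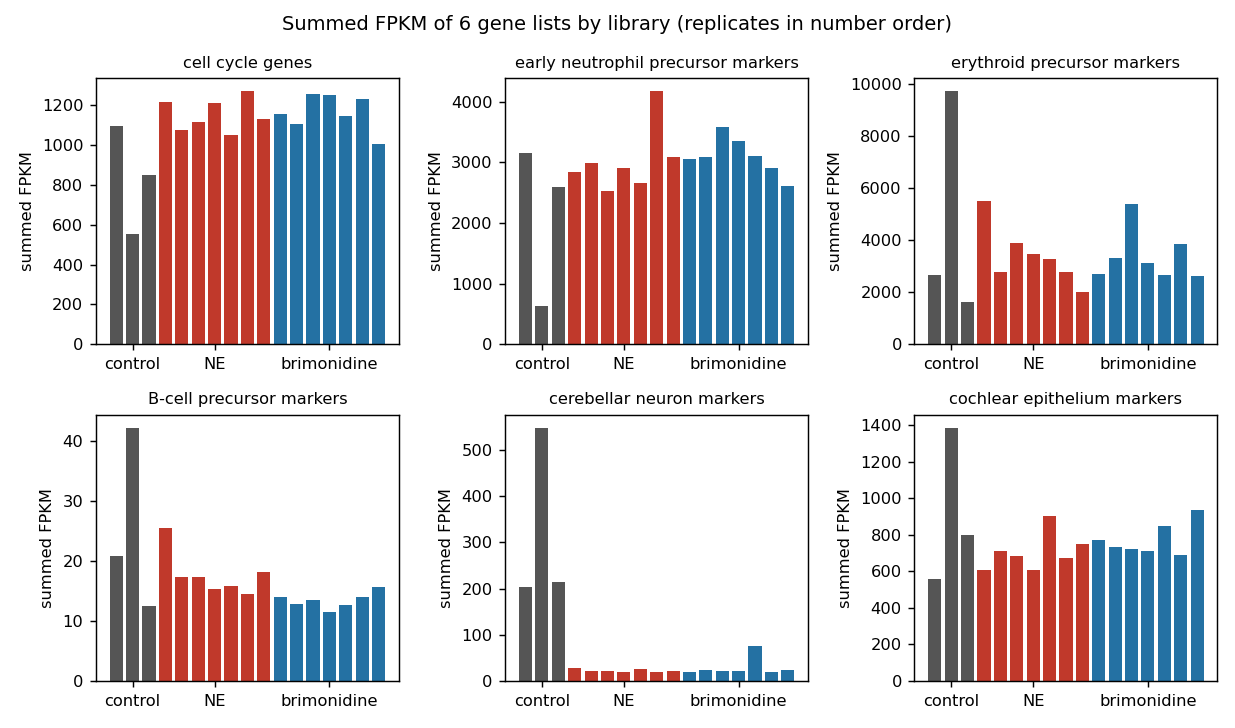
Summed FPKM in each library for the 35 members and for 5 marker lists; gray bars are control 1 to 3, red NE 1 to 7 and blue brimonidine 1 to 7, and each panel has its own axis from 0. Control 2 (second gray bar) is the lowest for the members (554) and early neutrophil markers (628) and the highest for the erythroid (9721), B-cell precursor (42.2), cerebellar (548) and cochlear epithelium (1385) markers.

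Brimonidine was compared with NE to ask what differed in exposed mice given the drug, although injection may also have differed between these groups. No member differed at any threshold: 0 of 35 passed an adjusted p under 0.05 or even an unadjusted p under 0.05. Over all 15707 genes tested, 0.0% passed both the adjusted p and the fold threshold, 0.00637% passed the adjusted p alone and 5.77% passed the unadjusted p. The members' log2 fold changes ran from -0.08 (*Cenpf*) to 0.10 (*Ccne2*), and 24 of 35 were above 0. Their median was 0.021, against 0.0149 over all genes. All 95% confidence intervals lay between -0.255 and 0.251. The p that misses the threshold does not show that the levels were equal.

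The values behind this overlapped in every member. *Mki67* was at 66.4 to 94.8 FPKM (median 76.9) in the brimonidine group, against 62.7 to 89.8 in the NE group, a difference of 0.04 ± 0.09 (adjusted p = 0.981, limma). *Top2a* was at 43.1 to 62.6 (median 51.6) and *Pcna* at 87.7 to 122 (median 103). Each range overlapped that of the NE group. The smallest p of the 35 belonged to *Ccne2*, at 7.35 to 10.3 FPKM (median 8.80) with brimonidine against 6.85 to 9.12 with NE, a difference of 0.10 ± 0.07 (limma p = 0.17, exact two-sided permutation p = 0.183, where the smallest possible is 0.00058). *Kif23* (11.4 to 13.9 FPKM, median 12.4) differed by 0.07 ± 0.05 and *Ccna2* (33.3 to 41.1 FPKM, median 37.6) by 0.06 ± 0.05, and both overlapped NE over most of the range. Brimonidine 7 was the lowest of its group for 29 of 35 members, at a median of 0.871 of the NE mean. Without it 1 member had an unadjusted p under 0.05, where 6.59% of all genes did. In that fit 31 members were above 0, with a median of 0.057 against 0.0155 over all genes.

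The brimonidine group and the control group were compared next, using the same 3 controls as above, so this comparison is not independent of the first. All 35 members had a higher mean in the brimonidine group, and 13 rose at an adjusted p under 0.05 where 3.47% of all 15947 genes tested were higher. None passed the fold threshold as well (5.73% of all genes in either direction), and 31 were higher at an unadjusted p under 0.05 (13.6% of all genes). The median was 0.55, against -0.03 over all genes. The lowest value was again that of *Ccne2* (0.06 ± 0.12) and the highest again that of *Plk1* (0.65 ± 0.26, adjusted p = 0.0981) on the log2(FPKM + 1) scale, whereas by the ratio of group means *Cenpf* was highest (1.61, against 1.46 for *Plk1*). In 5 members, *Cdk1*, *Cenpe*, *Cenpf*, *Kif11* and *Kif23*, every brimonidine library lay above every control, as it did for 5.07% of all genes.

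By role, 4 of 8 licensing genes, 4 of 7 spindle and kinetochore genes, both chromosome proteins, 1 of 6 cyclins and *Cdk1*, 1 of 3 DNA synthesis genes and 1 of 6 kinases and checkpoint genes rose with brimonidine against control. *Cenpf* (4.48 to 5.98 FPKM, median 5.21) changed by 0.55 ± 0.11 (adjusted p = 0.0083). *Cenpe* (8.77 to 12.7 FPKM, median 10.8) changed by 0.62 ± 0.16 and *Bub1b* (19.9 to 27.2 FPKM, median 23.7) by 0.63 ± 0.17, with adjusted p of 0.0247 and 0.0276. All *Cenpf* and *Cenpe* values lay above the 3 controls, and the lowest *Bub1b* library, brimonidine 7, lay below control 1. *Cdc6* (6.71 to 9.62 FPKM, median 8.98; 0.43), *Mcm2* (15.1 to 21.0 FPKM, median 18.7; 0.53) and *Cdt1* (17.0 to 25.6 FPKM, median 20.7; 0.60) had adjusted p of 0.0286, 0.0329 and 0.0381, each with control 1 inside the brimonidine range. *Ccna2* (0.55, adjusted p = 0.0421), *Kif11* (0.64, 0.037) and *Mcm6* (0.52, 0.0447) were past the threshold here and not in NE against control, but their values in brimonidine and NE differed by 0.06 ± 0.05, 0.06 ± 0.06 and 0.02 ± 0.05, none past its test.

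This comparison depended on the controls in the same way. Without control 2 the median fell to 0.27, 18 members were higher at an unadjusted p under 0.05 (10.2% of all genes) and 1 rose at the adjusted threshold (2.02% of all genes), again *Cenpf* (0.44 ± 0.11, adjusted p = 0.0305, with 0.000508 to 0.251 over the alternatives). Without control 1, 32 passed (11.4% of all genes were higher), and without control 3, 2 (3.21%). The count was 1 without brimonidine 4, 2 without brimonidine 1 or 6, 3 without brimonidine 3, 5 without brimonidine 5, 6 without brimonidine 2 and 10 without brimonidine 7, while the share of all genes that were higher lay between 1.37% and 2.38%. Marker lists also changed without control 2. The erythroid precursor markers then had a median of 0.69 in brimonidine against control and 3 of 10 rose at an adjusted p under 0.05 (limma, 2.02% of all genes), against a median of 0.07 and 0 of 10 with control 2. In the same fit 3 of 6 skeletal muscle markers rose, as did 1 of 6 plasma cell, 1 of 7 osteoblast and 1 of 5 endothelial markers, and with control 2 only 1 plasma cell marker did among these 4 lists. The part of these cells in the difference of the members was not tested.

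Other genes of the cycle were examined in a list of 90, of which *Cdkn2a* and *Fen1* stayed under 1 FPKM in every library. In NE against control, 9 of 88 tested rose at an adjusted p under 0.05 (2.12% of all genes) and 0 fell (12.0% of all genes), with a median of 0.37. *Incenp*, the scaffold of the chromosomal passenger complex, changed most among those 9, from 24.2 ± 8.57 FPKM in the controls to 42.0 ± 4.29 in the NE group (0.82 ± 0.18, adjusted p = 0.0123). The others were the chromokinesin *Kif4* (0.60), the DNA ligase *Lig1* (0.51), the phosphatase *Cdc25c* that activates Cdk1 (0.72), thymidine kinase *Tk1* (0.57), the polymerase subunit *Pole* (0.46), the Cdk4 inhibitor *Cdkn2c* (0.52), the condensin subunit *Ncaph* (0.58) and the E2F family repressor *E2f8* (0.63). At an unadjusted p under 0.05, 45 were higher, where 10.6% of all genes were higher, and 4 were lower, where 22.3% of all genes were lower. The latter were *Lin52*, *E2f6*, *E2f5* and the inhibitor *Cdkn1b* (-0.27). By role, 11 of 12 spindle and cytokinesis genes and 8 of 9 checkpoint and kinetochore genes were among the 45, as were 4 of 11 in the Rb and E2F families and 1 of 6 inhibitors, and the difference between roles was not tested. Without control 2, 2 of 88 rose at the adjusted threshold (*Incenp*, 0.56, and *Kif4*, 0.38; 0.875% of all genes), 14 were higher at an unadjusted p under 0.05 (6.45% of all genes), and the median was 0.14. The tallies by role were then 3 of 12 spindle and cytokinesis genes, 2 of 9 checkpoint and kinetochore genes, 1 of 11 in the Rb and E2F families and 1 of 6 inhibitors.

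Between brimonidine and NE, 0 of 87 of these genes passed the adjusted threshold and 3 had an unadjusted p under 0.05, where 5.77% of all genes did. The smallest p was that of *Cdkn1a*, the p21 inhibitor of cyclin-dependent kinases, at 21.99 ± 2.69 FPKM with brimonidine and 28.2 ± 1.08 with NE (both SD, n = 7). The difference was -0.35 ± 0.07 on the log2 scale (limma, adjusted p = 0.172). *Wee1*, the kinase that holds back Cdk1, and *Ncapg*, a condensin subunit, differed by 0.15 and 0.16, with adjusted p of 0.851 and 0.857. In brimonidine against control, 14 of 87 rose at the adjusted threshold (3.47% of all genes) and 0 fell (12.3% of all genes), with a median of 0.40, and the smallest p were those of *Incenp* (0.84), *Pole* (0.48) and *Kif4* (0.62). Without control 2, 3 of 87 rose where 2.02% of all genes did (*Incenp*, 0.57, *Kif4*, 0.39, and *Cdc25c*, 0.42), and the median was 0.17.

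Members also differed within groups along a property of the transcript. The difference of each member from the median of the other libraries of its group was set against merged exon length. In NE 6 this difference fell with length (across 35 genes, Pearson r = -0.686, Spearman rho = -0.638), and it also fell in brimonidine 3 (r = -0.781, rho = -0.708). Over all 16395 genes of these libraries r was -0.097 and -0.105 and rho was -0.309 and -0.319. The r over the members in NE 6 and brimonidine 3 were the largest of the 17 libraries in size, and the r over all genes were not. In other libraries r over the members was positive in brimonidine 6 (0.63), NE 3 (0.599), NE 1 (0.533), brimonidine 1 (0.517) and NE 7 (0.405) and negative in NE 2 (-0.483) and brimonidine 5 (-0.477), and the remaining 8 lay between -0.348 and 0.332. NE 6 was the highest NE library for 18 members, with a median exon length of 3577 bases, and the lowest for 2 long ones, *Mki67* (10061 bases) and *Kif23* (7901 bases). The points of a library share its RNA and depth, genes are not independent replicates, and r is given as a description. Thus *Mki67* and *Top2a* were below their group median in NE 6 while *Pcna* and *Ube2c* were above it. Without NE 6, the median member difference in NE against control was 0.50 (0.52 with it), and between brimonidine and NE 0.04 (0.02 with it).

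**Figure D5:**
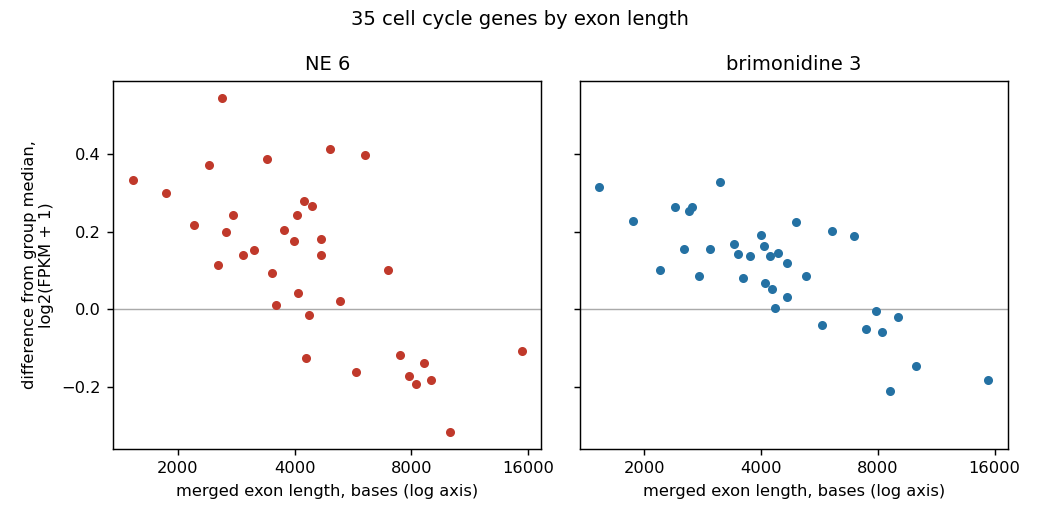
Difference of each of the 35 members from the median of the other libraries of its group, on the log2(FPKM + 1) scale, against merged exon length in bases (log axis), for NE 6 and brimonidine 3. The points fall with length, with r = -0.686 and -0.781, and single members such as *Tyms* (6089 bases) lie off the trend.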

How the data were processed

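Cochlear RNA of 17 mice was extracted with TRIzol, and the strand-specific mRNA libraries were run on a NovaSeq sequencer. The deposited table of the authors holds FPKM values of 35285 genes: the fragments of a gene over its exon length and over the library total, without other scaling. The submitters' processing notes name Trimmomatic, HISAT2, HTSeq, Cufflinks and the build mm10, with no versions. The depth of each library was read from the most common small value of FPKM multiplied by the merged exon length of GENCODE M21 on GRCm38. With that depth, 92.9% of values above 0 were whole fragments within 0.02, leaving out the values with the most fragments.

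Groups were taken from the sample labels, and no batch is labelled. A gene entered a test if at least 3 libraries of the comparison had 1 FPKM or more. Linear models were fitted to log2(FPKM + 1) with limma 3.58.1 (R 4.3.3, moderated with an intensity trend), a scale which understates changes of low genes. Each model held only the 2 groups compared, p-values were adjusted over all genes tested by the Benjamini-Hochberg method, and the study's thresholds (adjusted p under 0.05, absolute log2 fold change of at least 1) were applied. DESeq2, which the authors used, was not run, because the deposited values are FPKM and not counts. Among the fits, only voom used fragments recovered from FPKM. For single genes, exact permutation tests (two-sided, scipy 1.17.1) were run in addition. Values by library (lowest, median and highest in groups of 7) were given for *Mki67*, *Top2a* and *Pcna*, for up to 6 members with the smallest p past the adjusted threshold in each comparison and for the 3 with the smallest p in each, in all 12 members. The members, their roles, the 90 other cell cycle genes and the 11 marker lists were chosen with earlier results of these data known. Alternatives were another scaling, pseudocount, filter, model, weighting or threshold, a replicate block, each library left out, and voom on recovered fragments, which was chosen after seeing the data. Promoters were taken from RefSeq. The fit was also run on simulated data, in which the planted changes were larger than those of any member and all groups had the same spread. That run does not bear on differences as small as those of the members or on unlike controls.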

Additional observations from a re-analysis of the deposited data

Results flagged for a closer look

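A single value stood apart from its group. *Ube2c*, the ubiquitin-conjugating enzyme of the anaphase-promoting complex, was at 77.2 FPKM in NE 6, and the other 6 NE libraries were between 50.4 and 58.7. The gap to the next library was 0.69 of the range of the group, above Dixon's critical value of 0.568 for 7 libraries. Of 70 groups of values tested in this way, 1 was marked, where chance marks about 1 in 20. *Ube2c* has a merged exon length of 2600 bases, and NE 6 was one of the libraries in which the members' deviations fell with length (r = -0.686). The part of transcript length in this value was not tested.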

How the results depend on the processing

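No member passed both thresholds in any comparison under any alternative except without control 1, where 1 did in each comparison with control (range 0 to 1 over left-out libraries). With no minimum fold change, 13 passed in each, and 31 at an unadjusted p. The 13 for NE against control became 5 with no filter, 30 with all 17 libraries in 1 model, 30 with array weights (29 higher, and *Ccne2* lower) and 0 with the replicate number as a block, and 1 to 30 when a library was left out. The 13 for brimonidine against control became 5, 30, 30 and 0 under the same settings and 1 to 32 over left-out libraries. The share of all genes that were higher moved as well under these 4 settings, from 2.12% to 0.598%, 8.37%, 14.3% and 0.0% for NE against control and from 3.47% to 0.922%, 10.2%, 18.7% and 0.0125% for brimonidine against control. The labels give groups the same replicate numbers, but same-numbered libraries did not deviate together (r from -0.221 to 0.083), so the block does not pair mice, and it left 16 and 11 members higher at an unadjusted p under 0.05 (3.16% and 2.7% of all genes). The count between brimonidine and NE was 0 in all settings. The cause of these shifts was not tested. Quantile normalization moved the median of all genes from -0.04 to 0.06 for NE against control and from -0.03 to 0.07 for brimonidine against control, and the members' medians remained above these (0.53 and 0.57). The sign turned in some setting for 2 members in NE against control, 1 in brimonidine against control and 18 of 35 in brimonidine against NE, where differences were near 0 (7 of them without brimonidine 7). For that comparison values are given for those that turned among the 12 members with values by library. *Ccne2* in NE against control was 0.056 with median-ratio scaling and 0.082 with quantile normalization, and -0.204 (without control 2) to 0.05 (without control 3) over left-out libraries, with 0.015 without control 1. In brimonidine against control it was -0.137 with array weights and -0.103 (without control 2) to 0.151 (without control 3). *Bub1* in NE against control was -0.005 (without control 2) to 0.591 (without control 1). Between brimonidine and NE, over left-out libraries, *Mcm2* was -0.013 to 0.062 (-0.008 without NE 5), *Mki67* -0.009 to 0.077, *Pcna* -0.019 to 0.068 (-0.002 without brimonidine 2), *Cdt1* -0.012 to 0.082 and *Top2a* -0.003 to 0.085. Of the single-member values recomputed, 456 of NE against control kept direction and side of the adjusted threshold, 117 lost it, 51 gained it and 5 reversed. With 3 controls that differ among themselves, the size of the difference from control is poorly fixed.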
